A study of Drosophila melanogaster with 9 samples.

Results

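The cytosolic ribosomal protein genes were followed in hearts of adult Drosophila melanogaster females fed 3 diets. Members were all genes of the deposited expression table whose symbol begins with RpL or RpS, which gave 92 of 16700 rows. The rule used symbols and no expression value. By symbol, 47 members encode proteins of the large ribosomal subunit, 37 proteins of the small subunit, and 3 the stalk proteins RpLP0, RpLP1 and RpLP2. The remaining 5 carry the suffix "-like" (RpL7-like, RpL22-like, RpL24-like, RpLP0-like and RpS28-like). Mitochondrial ribosomal proteins have other symbols and were not included.

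RNA was sequenced from whole dissected hearts, with 3 libraries per diet, lettered A, B and C. All flies were mated w1118 females, fed on a common base of agar, yeast and cornmeal. In the study's methods, males were removed after 2 days in tubes of normal or high sugar food. The labels place the flies at 23°C, whereas the study's methods move them to that temperature, from a warmer one, only for the last days. The normal diet (ND) group received this base alone for 10 days. The high sugar diet (HSD) group received the base with 30% sucrose for 10 days. The high fat diet (HFD) group spent 7 days on ND and the last 3 days on the base with 30% coconut oil. HSD and HFD therefore differ in the length of the rich diet as well as in its content, and these cannot be told apart. Each library pooled hearts of several females, 15 by the sample labels, while the study's methods give a larger pool. Tubes of all 3 diets were set up for each collection date and each diet was sampled on 3 different days, but the sources do not tie the letters to days.

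The ribosome is built from ribosomal RNA and a set of ribosomal proteins, split between a small subunit that decodes the messenger RNA and a large subunit that forms the peptide bond. Because the proteins are needed in equal amounts, their genes are among the most strongly and most evenly transcribed of any cell, and in flies as in other animals their output follows growth signalling through TOR and Myc. In Drosophila, loss of a single copy of many of these genes gives the Minute phenotype, with delayed development and thin bristles. Several genes have a second copy, often expressed mainly in the germline.

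The rebuilt read totals ran from 59941761 (HFD A) to 90069216 (HSD A) per library. Values are given as scaled RPKM, the deposited reads per kilobase of gene and per fixed number of sequenced reads, divided by a library factor of 0.940 to 1.09. Summed heart muscle markers ran from 2466 to 3080 scaled RPKM in ND, 2529 to 3641 in HSD and 2471 to 3961 in HFD libraries, and every marker list of another cell type was also detected. The sums on ND, HSD and HFD were 414 to 558, 278 to 472 and 374 to 523 for pericardial cells, and 9315 to 12223, 9460 to 13221 and 6340 to 7182 for hemocytes. The hemocyte sum is 85.6% Nplp2, and the other 9 hemocyte markers summed to 1439 to 1636 on ND, 1087 to 1457 on HSD and 1149 to 1455 on HFD. Of all 10, 1 was above 0 for HSD vs ND (median log2 value -0.23) and 1 for HFD vs ND (median -0.35). The sums for fat body were 2539 to 3519, 1966 to 2406 and 1729 to 2084, and for oenocytes 41572 to 57427, 60232 to 72246 and 51454 to 63822. None of these lists had a gene at 0 in all libraries. In RNA from whole hearts, fewer cells of a type and less RNA per cell cannot be told apart, and the part of cell composition in the results below was not tested except where values are given.

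Of the 92 members, 91 had a value above 0 and 84 passed the filter on low values (mean scaled RPKM of at least 0.5), with 45 large-subunit, 34 small-subunit, 3 stalk and 2 "-like" genes. As the filter uses the mean over all 9 libraries, a member high in a single diet could pass. In practice the members fell far to either side of it, the lowest tested mean being 4.69 (RpS5b) and the highest untested mean 0.105. The median member stood at 1244 scaled RPKM against 9.66 for the 8356 genes tested, and 58 of the 100 most highly expressed genes were members. In all, 77 members exceeded 500 and 59 exceeded 1000, while 4 lay between 100 and 500 (RpS14b, RpL38, RpL34a and RpL24-like) and 3 between 1 and 100 (RpS15Ab, RpLP0-like and RpS5b). The median was 1375 for large-subunit and 1156 for small-subunit genes.

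**Figure D1:**
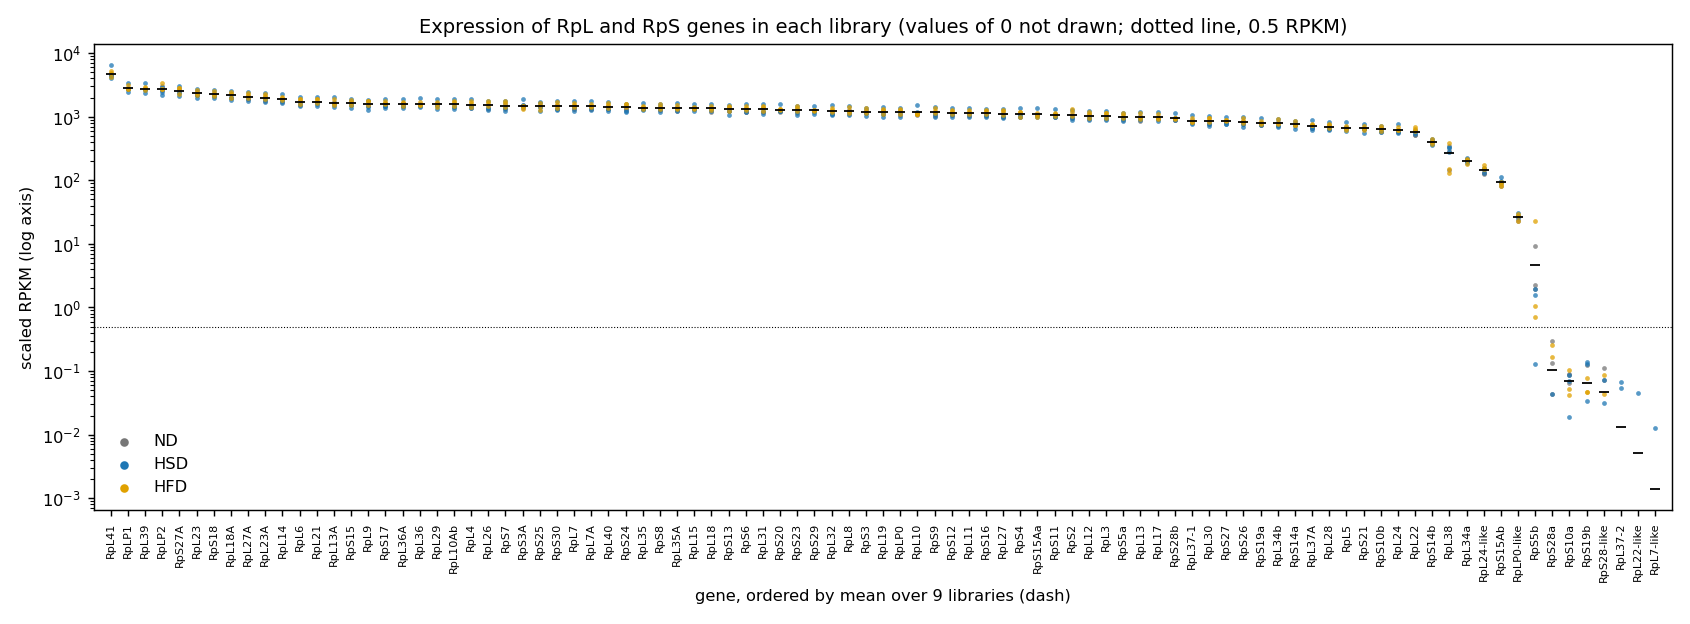
Scaled RPKM (log axis) of each ribosomal protein gene in each of the 9 libraries, coloured by diet, with a dash at the gene's mean over libraries, a dotted line at the filter of 0.5, and values of 0 not drawn. Genes are ordered by mean: RpL41 is highest, most genes lie above 500, RpS5b spreads widest among the tested genes, and the untested genes lie below the line.

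The 5 highest members were RpL41, RpLP1, RpL39, RpLP2 and RpS27A. RpL41 (chromosome 2R, 24903416 to 24903935 in BDGP6), which encodes the smallest ribosomal protein, had 4637, 4397 and 4584 scaled RPKM in ND A, B and C. It had at 6481, 4406 and 4095 on HSD, and at 5308, 4823 and 4178 on HFD. The diets overlapped, and HSD A stood above the other 8 libraries.

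The stalk proteins recruit the elongation factors to the large subunit. RpLP1 was at 2840.0, 2761 and 2725 on ND, at 3403, 2762 and 2459 on HSD, and at 2756, 3154 and 2724 on HFD. RpLP2, its partner in the stalk dimers, was at 3031, 2673 and 2642 on ND, at 2984, 2486 and 2199 on HSD, and at 2708, 3359 and 2690.0 on HFD. RpLP0, the stalk base, was lower, at 1211, 1086 and 1084 on ND, at 1363, 1126 and 987 on HSD, and at 1275, 1349 and 1090.4 on HFD. Within HSD all 3 genes were highest in A and lowest in C, and the diets overlapped for each. The log2 fold changes of RpLP2 were -0.13 on HSD (SE 0.15, limma adjusted p = 0.708) and 0.06 on HFD (SE 0.15, adjusted p = 0.857).

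RpS27A and RpL40 are translated as fusions with ubiquitin, which is then cleaved off. RpS27A was at 2756, 2509.7 and 2404 on ND, at 3033, 2350.3 and 2084 on HSD, and at 2816, 2849 and 2319 on HFD. RpL40 was at 1464, 1313 and 1315 on ND, at 1682, 1329 and 1238 on HSD, and at 1521, 1633 and 1368 on HFD. Neither gene separated the diets. RpL39, a short protein near the peptide exit tunnel, had the same order within HSD, at 2734, 2729 and 2722 on ND, at 3388, 2635 and 2329 on HSD, and at 2796, 2983 and 2673 on HFD.

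The first question was whether HSD changed the ribosomal protein genes relative to ND. None of the 84 members was called (limma, adjusted p below 0.05 and at least 1.5-fold), where 3.3% of all genes tested were called. Without the fold threshold the count was also 0 against 6.69% of all genes, 0 members had an unadjusted p below 0.05 against 20.7% of all genes, and limma-voom on the rebuilt reads gave 0 by all 3 rules. The smallest adjusted p among members was 0.355. The median log2 fold change was 0.05, with 67 members above 0 and 17 below, beside a median of 0.00 over all genes tested, of which 50.5% were above 0. For 82 of 84 members (97.6%) the 95% interval of the fold change lay within 1.5-fold in either direction, against 77.6% of all genes; the exceptions were RpL38 and RpS5b.

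The direction of this median turned with 1 library. Without HSD A it was -0.08 with 12 members above 0, and without HSD C it was 0.15 with 82 above 0. Leaving out ND C gave 0.02 with 52 above 0. When all 3 libraries lettered A were left out, a setting chosen after seeing the data, the median was -0.04 with 19 above 0, and without the 3 lettered C it was 0.12 with 79 above 0.

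RpL10, a large-subunit protein next to the peptidyl transferase centre, was the only member whose HSD and ND libraries did not overlap upward, and none did so downward, against 14.9% and 14.3% of all genes. It was at 1083, 1097 and 1122 on ND, at 1554, 1195 and 1138 on HSD, and at 1109, 1121 and 1105 on HFD. HSD C exceeded the highest ND library by little, while HSD A exceeded it clearly. Its log2 fold change was 0.22 (SE 0.12, 95% interval -0.05 to 0.50, limma adjusted p = 0.355), and the two-sided exact permutation test gave p = 0.1, the smallest that 3 against 3 libraries allow. The members above and below it in HSD were RpL38 (log2 0.33, SE 0.42, adjusted p = 0.74) and RpLP0-like (0.17, SE 0.11, adjusted p = 0.416). At the other end stood RpS5b (-1.45, SE 1.10, adjusted p = 0.533), RpLP2 and RpL9 (-0.08, SE 0.15, adjusted p = 0.844). RpL9, of the large subunit, was at 1783, 1499 and 1518 on ND, at 1853, 1437 and 1286 on HSD, and at 1802, 1793 and 1509.7 on HFD, so the diets overlapped.

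The second question was the same for HFD. Again 0 of 84 members were called, against 1.91% of all genes, and 0 against 2.96% passed adjusted p alone. At an unadjusted p below 0.05 there was 1 member, RpL24-like, against 18.4% of all genes. With limma-voom the counts were 0 called and 2 at unadjusted p. The median log2 fold change was 0.11, with 75 members above 0 and 9 below, beside 0.02 over all genes, of which 53.9% were above 0. The median was 0.11 for the large subunit, 0.10 for the small subunit, 0.06 for the stalk and 0.20 for the 2 "-like" genes, and differences between these groups were not tested. The interval lay within 1.5-fold for 82 members, against 78.8% of all genes, with RpL38 and RpS5b again outside.

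The direction of this median held when each library was left out in turn, although it fell to 0.05 with 64 members above 0 without HFD B and reached 0.16 with 78 above 0 without HFD C. The size of the median depended on scaling. With RPKM as deposited the median was 0.22 with 82 members above 0, but the median of all genes was then 0.12, and with quantile normalization the 2 medians were 0.08 and 0.02. In the deposited RPKM, ribosomal protein genes took 19.0, 18.5 and 18.7% of the summed RPKM in ND A, B and C, 22.7, 19.1 and 18.3% in the HSD libraries, and 22.5, 22.3 and 21.2% in the HFD libraries. By this share the HFD libraries did not overlap the ND libraries. In scaled RPKM they did, the members summing to 103785 in HFD C and 110925 in ND A. ND is shared by the HSD and HFD comparisons, which are therefore not independent of each other.

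**Figure D2:**
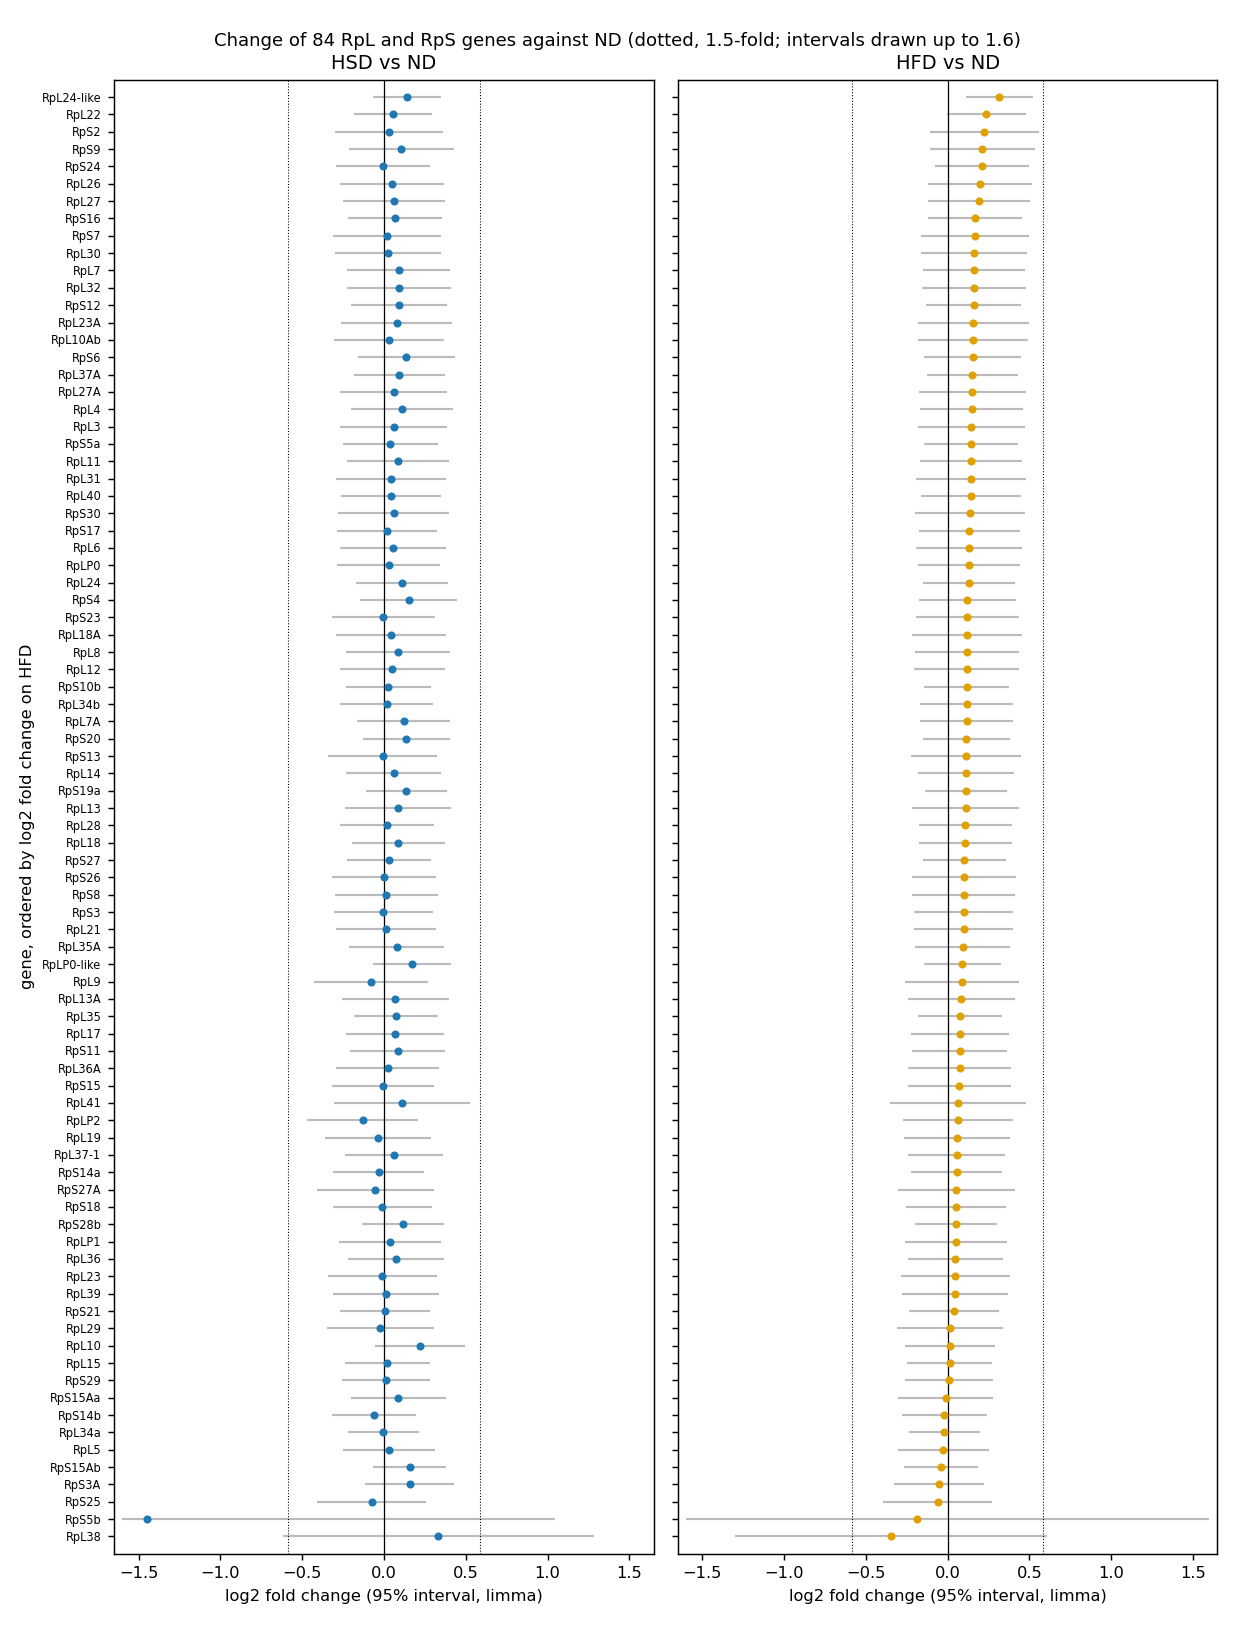
Log2 fold changes of the 84 tested ribosomal protein genes for HSD vs ND (left) and HFD vs ND (right), both in the order of the HFD value, with 95% intervals from limma drawn up to 1.6 on the log2 scale and dotted lines at 1.5-fold. The points lie close to 0, with medians of 0.05 and 0.11, and only the intervals of RpL38 and RpS5b cross the dotted lines.

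In HFD 6 members stood above ND in every library and 0 stood below, against 11.3% and 12.1% of all genes, so the share upward (6 of 84) was under that of all genes. They were RpL24-like, RpS24, RpS9, RpS27, RpS20 and RpL37A. RpL24-like (chromosome 3R, 11430740 to 11431582 in BDGP6), the counterpart of the yeast factor Rlp24 that holds the place of RpL24 during assembly of the large subunit, had the lowest p. It was at 129, 136 and 126 on ND, at 154, 150.2 and 129 on HSD, and at 159, 177 and 153 on HFD. These values correspond to 130.5 ± 5.35, 144 ± 13.3 and 163 ± 12.3 (SD, n = 3), and every HFD library was above every ND library. The HFD log2 fold change was 0.32 (SE 0.09, 95% interval 0.11 to 0.52), with limma p = 0.0068 and adjusted p = 0.0998, and the exact permutation p was 0.1. It ranged from 0.26 to 0.36 when 1 library was left out and did not pass there, the lowest adjusted p being 0.0869. It passed adjusted p alone with RPKM as deposited (0.0173) and with quantile normalization (0.0465).

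RpS24, RpS9, RpS27 and RpS20 belong to the small subunit. RpS24 was at 1381, 1346 and 1281 on ND, at 1592, 1252 and 1179 on HSD, and at 1609.6, 1606 and 1427 on HFD. RpS9 (chromosome 3L, 9509793 to 9511531), which binds ribosomal RNA early in assembly, was at 1136, 1041 and 1062 on ND, at 1438, 1094 and 992 on HSD, and at 1236, 1358 and 1161 on HFD. Both had an HFD log2 fold change of 0.21 with limma adjusted p of 0.425 and 0.478. For RpS9, 50.3% of the exon bases are shared with an antisense RNA gene on the other strand, and the strand setting of the counting is not given.

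RpS27 was at 839, 814 and 821 on ND, at 1001, 778 and 767 on HSD, and at 878, 905 and 871 on HFD. RpS20 was at 1219, 1233 and 1203 on ND, at 1598, 1229.9 and 1217 on HSD, and at 1312, 1346 and 1296 on HFD. RpL37A, a small zinc-binding protein of the large subunit, was at 676, 668 and 669 on ND, at 876, 668 and 628 on HSD, and at 729, 774 and 736 on HFD. In these 3 genes the ND libraries lay close together, so a small HFD difference (log2 0.10, 0.11 and 0.15) left no overlap, and the limma adjusted p values were 0.68, 0.656 and 0.553. For RpL37A, 19.7% of the exon bases are shared with an antisense RNA gene on the other strand.

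The next largest HFD values were those of RpL22 and RpS2. RpL22 (chromosome X, 762560 to 765130), which in flies carries a long N-terminal extension resembling histone H1, was at 617, 510.5 and 512 on ND, at 590.5, 575 and 531 on HSD, and at 646, 690.5 and 592 on HFD. Its log2 fold change was 0.24 (SE 0.11, limma adjusted p = 0.277), from 0.18 to 0.33 when 1 library was left out, and adjusted p was 0.0406 with RPKM as deposited. A noncoding RNA gene on the same strand shares 34.3% of its exon bases, so part of its reads may have been left out or assigned to that gene. RpS2 was at 1084, 986 and 959 on ND, at 1267, 967 and 893 on HSD, and at 1207, 1303 and 1041 on HFD, with a log2 fold change of 0.22 (SE 0.15, adjusted p = 0.465). The lowest HFD values were those of RpL38 (-0.35, SE 0.42, adjusted p = 0.712), RpS5b (-0.19, SE 1.10, adjusted p = 0.944) and RpS25 (-0.06, SE 0.15, adjusted p = 0.868). RpS25, a small-subunit protein that contacts some viral internal ribosome entry sites, was at 1646, 1485 and 1436 on ND, at 1732, 1405 and 1232 on HSD, and at 1458, 1644 and 1296 on HFD.

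HSD and HFD were then compared directly. No member was called (0 of 84, against 4.36% of all genes), 0 against 9.44% passed adjusted p alone, 0 against 25.8% had an unadjusted p below 0.05, and limma-voom gave 0 for each. The smallest adjusted p was 0.25. The median log2 value of HSD minus HFD was -0.07, with 19 members above 0 and 65 below, beside -0.01 over all genes. The median was 0.03 with 62 members above 0 without HSD C, -0.01 with 38 above 0 without HFD B, and -0.20 with 5 above 0 without HSD A. Without HSD A 12 of 84 members had an unadjusted p below 0.05, where 24.7% of all genes did, and the smallest adjusted p was 0.0693.

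RpL10 and RpS3A were higher in every HSD library than in every HFD library and RpL22 was lower, against 15.8% higher and 14% lower among all genes. RpS3A, a small-subunit protein and the only member on chromosome 4 (65225 to 67207), was at 1377, 1520.1 and 1474 on ND, at 1899, 1535 and 1467 on HSD, and at 1302, 1453 and 1463 on HFD. The lowest HSD library exceeded the highest HFD library by little. The log2 values were 0.21 for RpL10 (SE 0.12, limma adjusted p = 0.32), 0.21 for RpS3A (SE 0.12, adjusted p = 0.314) and -0.18 for RpL22 (SE 0.11, adjusted p = 0.315). RpL38 had the highest value (0.68, SE 0.42, 95% interval -0.27 to 1.63, adjusted p = 0.347). RpS5b (-1.26, SE 1.10, adjusted p = 0.512), RpS24 (-0.22, SE 0.13, adjusted p = 0.32) and RpLP2 (-0.19, SE 0.15, adjusted p = 0.452) had the lowest.

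The members moved together from library to library within a diet, most of all within HSD. The median member deviated from its own mean over the 9 libraries, on the log2 scale, by 0.04, -0.09 and -0.09 in ND A, B and C, by 0.26, -0.07 and -0.20 in HSD A, B and C, and by 0.05, 0.17 and -0.06 in HFD A, B and C. The median over all genes tested lay between -0.01 and 0.01 in each library, rounded to 2 decimals. HSD A was the highest of the 9 libraries for 75 of 84 members, against 13.3% of all genes, and HSD C was the lowest for 67, also against 13.3%. Within HSD, A exceeded B and C in 82 members (39.6% of all genes), RpL38 and RpS5b being the exceptions. The order A over B over C held in 80 (23.4% of all genes), and RpLP0-like and RpS15Ab were the other 2 that departed from it.

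The median difference between HSD A and HSD C was 0.46 on the log2 scale, or 1.38-fold, against 0.01 for all genes. RpS6, a target of the growth-regulated S6 kinase, is an example at 1317, 1170.0 and 1193 on ND, at 1615, 1277 and 1187 on HSD, and at 1359, 1468 and 1269 on HFD. The large-subunit and small-subunit medians were 0.27 and 0.24 in HSD A and -0.20 and -0.20 in HSD C, so both subunits took part. The order within HSD was also present in sta and Rack1, ribosome components whose symbols place them outside the rule. The small-subunit protein sta was at 1614, 1284 and 1113 and the scaffold protein Rack1 at 1414, 1137 and 1005 in HSD A, B and C, and their median deviation was 0.29 in HSD A and -0.22 in HSD C.

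**Figure D3:**
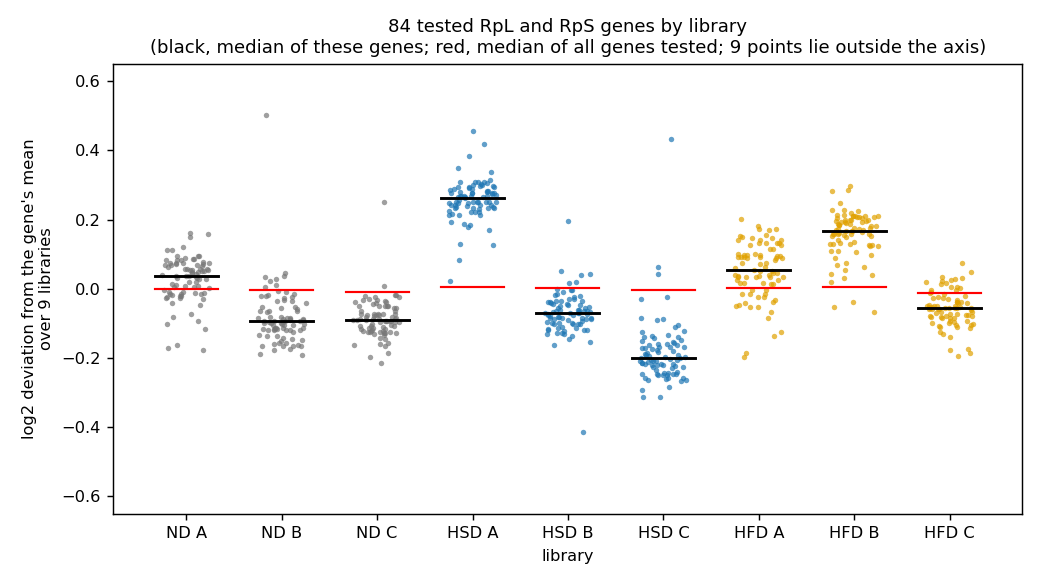
Log2 deviation of each of the 84 tested ribosomal protein genes (points) from its own mean over 9 libraries, by library, with the median of these genes as a black bar and that of all genes tested as a red bar. The points lie in a band that is highest in HSD A (median 0.26) and lowest in HSD C (-0.20), while the red bars stay near 0, and 9 points lie outside the axis limit of 0.62.

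Relative to this common movement the members varied little. The within-diet SD of a member was 0.16 on the log2 scale at the median, against 0.13 for all genes. The members' value fell to 0.04 once each library's member median was taken off. That step used the same members and was not applied to all genes, so 0.04 and 0.13 are not comparable. RpS5b and RpL38 were the only members with a within-diet SD above 0.5, the third being RpL41 at 0.23. Summed muscle markers had the reverse order within HSD, at 2529, 3383 and 3641 in A, B and C, with A lowest for 14 of 15 genes tested. Summed pericardial markers had the same order as the members (472, 304 and 278), with A over B over C in 7 of 8 genes. Summed fat body markers also had it (2406, 2064 and 1966), with A over B over C in 5 of 9 genes tested and A highest in 8. A was lowest for 6 of 7 oenocyte, 10 of 12 eggshell and 5 of 8 germline markers tested. Of 10 hemocyte markers A was lowest for 7, while Nplp2 had the order A over B over C (12134, 9086 and 8004). The part of these differences in the ribosomal protein values was not tested.

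Scaling each library to its median member, a setting chosen after seeing the data, gives each gene relative to the others of the ribosome. This scaling itself brings the member medians to about 0 and splits the members nearly evenly, so neither is a result. The medians were 0.00, 0.00 and -0.01 for HSD vs ND, HFD vs ND and HSD vs HFD. Above 0 were 43, 44 and 40 of 84 members, and 0 were called. At an unadjusted p below 0.05 were RpLP2 (-0.18) and RpL10 (0.18) for HSD vs ND and RpS25 (-0.16) for HFD vs ND. For HSD vs HFD there were RpL10 (0.27), RpS3A (0.27) and RpS24 (-0.16). Over all genes, 12.7, 12.3 and 14.8% passed that threshold under this scaling, so these 2, 1 and 3 of 84 members were smaller shares. The smallest adjusted p values among members were 0.215, 0.312 and 0.103.

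RpL38, a large-subunit protein whose loss in mice gives the Tail short skeletal phenotype, varied in another way. It was at 148, 350.4 and 294 in ND A, B and C, at 323, 283 and 333 on HSD, and at 149.6, 129.8 and 381 on HFD. The 9 values formed a low set (ND A, HFD A and HFD B) and a high set of the remaining 6 libraries, which cut across the diets. Each library held between 8415 and 30096 reads of the gene, so counting error is small beside this gap. The means were 264 ± 105, 313 ± 26.4 and 220.1 ± 139.7 (SD, n = 3). The log2 fold change for HFD vs ND ran from -0.83 to -0.05 when 1 library was left out, and that for HSD vs ND from -0.04 without ND A to 0.58.

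RpL38 lies at 4515388 to 4516458 on chromosome 2R, nearest of all members to the centromere of that arm. After its values were seen, 5 members were compared with the other genes of the same stretches. The stretches were chosen toward the centromeres of 2L, 2R and 3L, with the small, largely heterochromatic chromosome 4, and none was taken on X or 3R. The members were RpL5 (2L, from 22532279), RpL10 (3L, from 23093190), RpL15 (3L, from 27267255), RpL38 and RpS3A, and as the grouping followed the values no test is given. RpL21, outside the 2L stretch at 22247111 to 22247875, had log2 values of 0.10 for HFD vs ND and -0.09 for HSD vs HFD. The values of the 5 members follow. Their HFD vs ND log2 values were -0.03, 0.01, 0.01, -0.35 and -0.05, ranks 6, 12, 11, 1 and 4 from the lowest of the 84 members. Their HSD vs HFD values were 0.06, 0.21, 0.01, 0.68 and 0.21, ranks 77, 82, 69, 84 and 83.

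The 132 other genes tested in these stretches had a median log2 value of -0.18 for HFD vs ND, with 112 below 0, and of 0.25 for HSD vs HFD, with 115 above 0. The medians for HFD vs ND were -0.15 on 2L, -0.19 on 2R, -0.14 on 3L and -0.18 on chromosome 4. By library, the median deviation of the 132 genes was -0.18, 0.18 and 0.11 in ND A, B and C, 0.02, 0.09 and 0.24 in HSD A, B and C, and -0.23, -0.32 and 0.13 in HFD A, B and C. The 3 lowest libraries were those in which RpL38 was lowest. The remaining 79 members had medians of 0.11 for HFD vs ND and -0.07 for HSD vs HFD. Positions are those of BDGP6, whereas the authors mapped to dm3.

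RpL5, which binds the smallest ribosomal RNA of the large subunit together with RpL11, was at 695, 649 and 660.2 on ND, at 813, 665 and 588 on HSD, and at 658, 704 and 610.4 on HFD. RpL15 was at 1334, 1415 and 1336 on ND, at 1614, 1312 and 1244 on HSD, and at 1327, 1424 and 1369 on HFD. Both had the order A over B over C within HSD, as did 80 of the 84 members.

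RpS5b (chromosome 3R, 14900432 to 14901563), the germline-enriched copy of RpS5a, was the lowest member tested. It was at 1.94, 2.22 and 9.33 in ND A, B and C, at 0.131, 1.57 and 1.96 on HSD, and at 0.699, 1.05 and 23.3 on HFD, from 11 to 1728 reads per library. HFD C and ND C stood above the other 7 libraries. Its HFD vs ND log2 value changed sign with the libraries, being 0.46 without ND C, 0.59 without HFD A and -1.56 without HFD C.

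Germline markers had the same 2 libraries on top. Summed over 12 genes they were at 26.5, 27.8 and 43.3 on ND, at 21.8, 25.2 and 25.1 on HSD, and at 27.4, 22.4 and 100.3 on HFD, with 11 of 12 highest in HFD C and 10 of 12 second in ND C. The gene grk made up 52.1% of the sum and was at 18.7, 18.3 and 16.0 on ND, at 16.2, 19.8 and 19.4 on HSD, and at 21.3, 16.3 and 20.9 on HFD. The other 11 summed to 7.88, 9.53 and 27.3 on ND, to 5.69, 5.46 and 5.72 on HSD, and to 6.15, 6.14 and 79.3 on HFD. The oocyte patterning gene osk was at 0.307, 0.972 and 3.60 on ND, at 0.107, 0.407 and 0.791 on HSD, and at 0.364, 0.316 and 10.1 on HFD. The germline helicase gene vas was at 0.0778, 0.208 and 0.674 on ND, at 0.0574, 0.0818 and 0.115 on HSD, and at 0.105, 0.104 and 1.52 on HFD. The mitotic cyclin gene CycB, abundant in ovaries, was at 0.930, 1.72 and 11.3 on ND, at 0.108, 0.491 and 0.393 on HSD, and at 0.628, 1.00 and 36.0 on HFD. HSD A was the lowest library for RpS5b and for osk, CycB and vas. Of the 8 germline markers tested, HSD A was the lowest HSD library for 5 and the highest for 2. The values of vas were below 0.5 scaled RPKM except in ND C and HFD C. Summed eggshell markers were high in ND C (1564) and not in HFD C, the HFD libraries running from 6.17 to 11.4. The part of germline RNA in the RpS5b values was not tested.

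**Figure D4:**
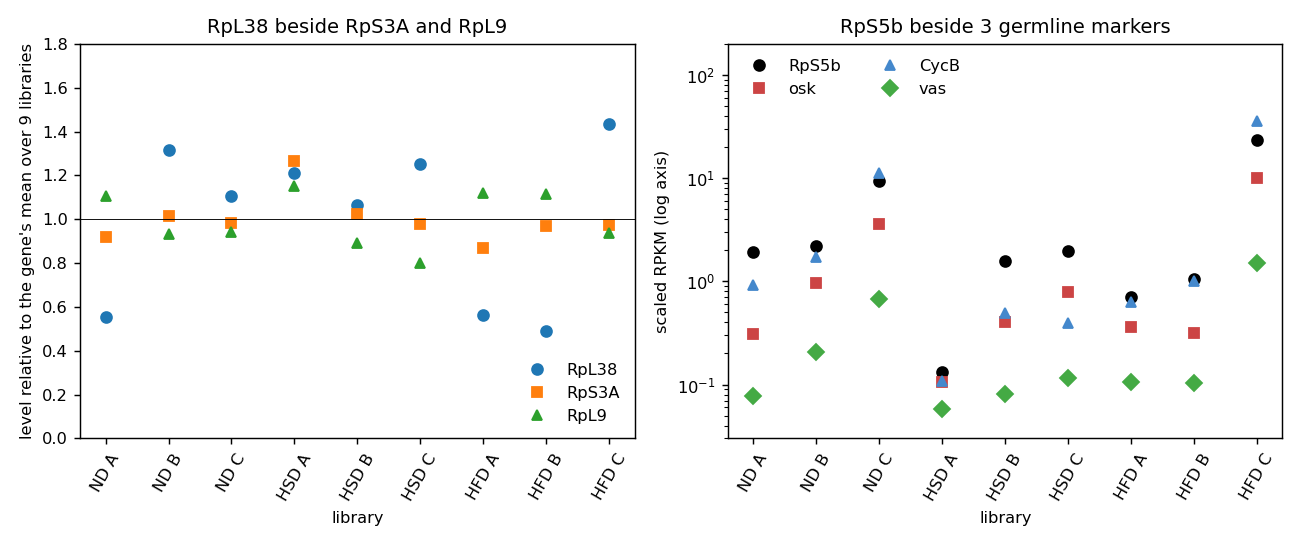
Left, level of RpL38, RpS3A and RpL9 in each library divided by the gene's mean over the 9 libraries; right, scaled RPKM (log axis) of RpS5b and the germline markers osk, CycB and vas in each library. RpL38 is low in ND A (148 scaled RPKM), HFD A (149.6) and HFD B (129.8), where RpL9 is not, and RpS5b and the 3 markers are highest in HFD C and second in ND C.

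The paralog pairs allow a ratio within a library, which does not depend on scaling between libraries. In 4 pairs of ribosomal protein copies the minor gene was tested. RpS14b reached 54.0 ± 1.21% of RpS14a on ND, 53.0 ± 2.87% on HSD and 51.3 ± 1.90% on HFD (mean and SD of 3 libraries). RpL34a reached 27.0 ± 0.611% of RpL34b on ND, 26.7 ± 2.04% on HSD and 24.6 ± 2.15% on HFD. RpS15Ab reached 8.35 ± 0.665% of RpS15Aa on ND, 8.77 ± 0.718% on HSD and 8.18 ± 0.544% on HFD. These 3 ratios varied by less between diets than RpS5b over RpS5a, with means of 0.489, 0.136 and 0.870% and the spread described above. Reads from near-identical stretches of such copies may be assigned to either gene, so the ratios are uncertain as absolute values.

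In levels, RpS14b was at 432, 398 and 394 on ND, at 450.3, 374 and 356 on HSD, and at 367, 448 and 397 on HFD. RpL34a was at 215, 202 and 199 on ND, at 223, 204 and 189 on HSD, and at 218, 209.8 and 181 on HFD. RpS15Ab was at 82.3, 94.5 and 92.7 on ND, at 113, 91.8 and 96.3 on HSD, and at 80.9, 87.9 and 93.0 on HFD. All 3 overlapped between diets.

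RpL24-like reached 22.1 ± 1.44% of RpL24 on ND, 22.7 ± 2.65% on HSD and 25.2 ± 0.186% on HFD, and the HFD and ND libraries did not overlap. For RpL24, 21.6% of the exon bases are shared with a protein-coding gene on the other strand, and the strand setting is not given. RpLP0-like, the counterpart of the yeast assembly factor Mrt4, reached 2.22 ± 0.104% of RpLP0 on ND, 2.46 ± 0.277% on HSD and 2.15 ± 0.0505% on HFD, with no overlap between HSD and HFD. RpLP0-like itself was at 27.2, 25.0 and 22.8 on ND, at 30.3, 26.9 and 27.3 on HSD, and at 27.2, 29.8 and 23.1 on HFD. Over the 18 ratio tests the smallest exact permutation p was 0.1, reached by these 2 and the smallest possible, and the smallest adjusted value was 0.6.

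The 8 members below the filter were RpS10a, RpS19b, RpS28a, RpS28-like, RpL10Aa, RpL37-2, RpL22-like and RpL7-like. Over the 9 libraries together RpS10a had 27 reads, RpS19b 29, RpS28a 21, RpS28-like 11, RpL37-2 4, RpL22-like 4 and RpL7-like 2. For RpL7-like, 98.8% of the exon bases are shared with a protein-coding gene on the same strand. Its reads may have been left out or assigned to that gene, so its count says little about its level. RpS19b is enriched in the germline and RpL22-like in the testis, and no library of RpS19b exceeded 0.138 scaled RPKM. RpL10Aa had no read, which at 3 reads over all libraries allows up to 0.00575 scaled RPKM. Their partner genes averaged 634 (RpS10b), 798 (RpS19a), 957 (RpS28b), 1561 (RpL10Ab), 864 (RpL37-1), 584.8 (RpL22) and 1461 (RpL7). These floors cover counting error only.

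Ribosome production also needs assembly factors and ribosomal RNA synthesis, and these genes were followed in lists of the same pathway. Of 32 ribosome biogenesis genes tested, 31 had a log2 value above 0 for HSD vs ND (median 0.17) and all 32 for HFD vs ND (median 0.20), beside medians of 0.00 and 0.02 over all genes. None was called at 1.5-fold. At adjusted p alone 2 genes rose on HSD, nop5 and Nop56, and 2 on HFD, mbm and Surf6, shares of 2 in 32 that stand beside 6.69% and 2.96% of all genes. In each comparison 19 of the 32 genes had all libraries of the rich diet above all ND libraries and 0 below, against 14.9% (HSD) and 11.3% (HFD) of all genes.

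The nucleolar proteins nop5 and Nop56 form the core of the particles that methylate ribosomal RNA. The gene nop5 was at 18.1, 15.6 and 16.3 on ND, at 26.4, 21.7 and 22.2 on HSD, and at 21.7, 25.1 and 19.6 on HFD. Its HSD log2 fold change was 0.48 (SE 0.11, limma adjusted p = 0.0368). Nop56 was at 15.5, 16.0 and 14.3 on ND, at 21.7, 18.8 and 18.9 on HSD, and at 19.7, 19.8 and 17.9 on HFD, with a log2 fold change of 0.36 (SE 0.08, adjusted p = 0.0287). For both genes all 6 libraries of the rich diets lay above the 3 ND libraries.

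The nucleolar gene mbm, which supports ribosome assembly in fly neuroblasts, was at 4.40, 4.52 and 5.02 on ND, at 4.75, 4.07 and 4.77 on HSD, and at 5.95, 6.56 and 6.26 on HFD. Its log2 value was 0.39 for HFD vs ND (SE 0.08, adjusted p = 0.040) and -0.43 for HSD vs HFD (adjusted p = 0.0138). Surf6, a nucleolar protein, was at 7.80, 6.71 and 6.96 on ND, at 7.91, 8.38 and 7.63 on HSD, and at 9.26, 8.97 and 9.17 on HFD, with a log2 value of 0.33 for HFD vs ND (SE 0.07, adjusted p = 0.0398). In mbm and Surf6 the HFD libraries were separated from both other diets.

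These calls depended on single libraries. The HSD median lay between 0.16 and 0.20 and the HFD median between 0.16 and 0.27 when 1 library was left out. The HSD count at adjusted p alone was 0 without ND A, ND C, HSD A, HSD B or HSD C in turn, and the HFD count was 0 without ND C, HSD C or HFD B. The HSD and HFD counts were 6 and 15 with RPKM as deposited, where the medians over all genes were 0.04 and 0.12. At an unadjusted p below 0.05 (limma) were then 22.5 and 28.5% of all genes, beside 20.7 and 18.4% with median of ratios. Both counts were 0 without the libraries lettered A and without those lettered C. They were also 0 when scaled to the median member, where the biogenesis medians were 0.13 and 0.10. By library the biogenesis median deviated by -0.12, -0.14 and -0.15 in ND A, B and C, by 0.09, 0.05 and 0.02 in HSD A, B and C, and by 0.11, 0.21 and -0.04 in HFD A, B and C. The rank of the HSD libraries was that of the ribosomal protein genes, over a narrower range.

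**Figure D5:**
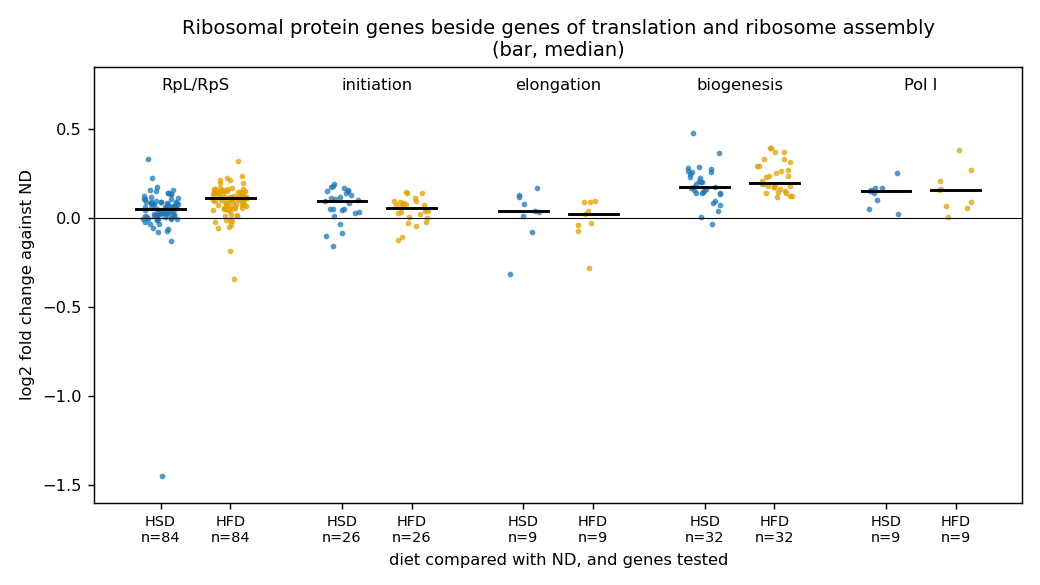
Log2 fold changes against ND of the ribosomal protein genes beside genes of translation initiation, translation elongation, ribosome biogenesis and RNA polymerase I (Pol I), for HSD and HFD, with a bar at each median and the number of genes tested under each column. The ribosome biogenesis medians are 0.17 and 0.20 against 0.05 and 0.11 for the ribosomal protein genes, and the lowest point is RpS5b on HSD.

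The 9 genes of RNA polymerase I, which transcribes ribosomal RNA, had log2 values above 0 in all 9 cases on both diets (median 0.15 on each), with 0 called and 0 at adjusted p alone. Without HFD B the HFD median was 0.05 with 7 above 0. Of 26 translation initiation genes 22 were above 0 on HSD (median 0.10) and 20 on HFD (0.05), and of 9 elongation genes 7 and 5 (0.04 and 0.02). None of these was called or passed adjusted p alone. Whether the assembly genes differed from the ribosomal protein genes in their response was not tested.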

How the data were processed

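Sequencing used a stranded total RNA kit with ribosomal RNA removal, and libraries were grouped by the diet in the labels. Per the study's methods, the authors trimmed paired-end reads with Sickle, aligned them to dm3 with Subread 1.6.1, counted genes with featureCounts 1.6.1 and updated gene IDs to dm6; DESeq2 1.20.0 and edgeR 3.22.5 appear in the submitters' processing notes. The deposited values are RPKM, and the step that made RPKM from counts and the strand setting are not given in the sources used here. In 28.4% of value cells the decimal mark was a comma. Gene labels were shifted against the values in 9 blocks of rows and were realigned; at annotated lengths 96.0% of the 2316 rows above 0 there gave whole reads (within 0.1) after realignment and 21.2% as listed. Of all rows, 95.5% of those above 0 gave whole reads, and these rebuilt reads were used for depth and limma-voom only. Of the members, 1 had a shifted label (RpLP0-like), 86 gave whole reads in all libraries, and 32 share exon bases with another gene, 12 over more than 10%.

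RPKM were scaled by median of ratios, log2(value + 0.5) was taken, and genes with a mean of at least 0.5 were fitted with limma 3.58.1 in R 4.3.3 (trend, all 9 libraries in 1 fit, 6 residual degrees of freedom), with Benjamini-Hochberg adjustment over 8356 genes. Fold changes are on this scale, which understates changes of low genes, RpS5b above all. Genes were called at adjusted p below 0.05 and at least 1.5-fold. Single values and paralog ratios were compared by two-sided exact permutation tests over libraries (scipy 1.17.1). The fits were tested on simulated data. The study's methods describe the 3 libraries of a diet as independent samples, and p-values measure the spread between them.

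The members, lists and tests were chosen with earlier results of these data known. Named members are the 3 highest and 3 lowest fold changes per comparison, the 5 highest and 5 lowest levels, paralog pairs, stalk and ubiquitin fusion genes, RpL41 and members below the filter; RpS6, RpL5, RpL15, sta, Rack1 and members without overlap were added after their values were seen. From the other lists, genes that passed adjusted p alone are named. Alternatives were other scalings, pseudocounts, filters, variance priors, sample sets, label handling and limma-voom; leaving out the libraries lettered A or C and scaling to the median member were added after seeing the data. Positions are from the BDGP6 annotation. Promoter motifs were not analysed here.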

Additional observations from a re-analysis of the deposited data

How the results depend on the processing

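No member was called in any comparison under any alternative, while the median log2 fold change of the ribosomal protein genes moved with the setting. Leaving out 1 library gave medians of -0.08 to 0.15 for HSD vs ND, 0.05 to 0.16 for HFD vs ND and -0.20 to 0.03 for HSD vs HFD, so the first and last changed sign while uncalled. RPKM as deposited gave 0.09, 0.22 and -0.14, beside medians over all genes of 0.04, 0.12 and -0.07. Quantile normalization gave 0.01, 0.08 and -0.08, and limma-voom 0.04, 0.11 and -0.08. Correlations of deviations from the diet means were -0.25 to 0.27 for the 9 same-letter pairs, 4 of them over 0.1, and -0.32 to 0.36 for other pairs. With 3 libraries per diet these cannot show whether the replicate letters pair the libraries, and the sources do not state it. A fit with the letter as a replicate block left the medians at 0.05, 0.11 and -0.07 with 0 members called, and the smallest adjusted p values were 0.233, 0.0631 and 0.159. It took the count of biogenesis genes at adjusted p alone on HFD from 2 to 0 and left the HSD count at 2. With 3 libraries per diet the typical 95% interval of a member, before adjustment, was 0.31 wide on either side on the log2 scale. Smaller differences in a typical member could not be told from 0. Larger ones could also miss adjusted p, as did RpL24-like on HFD (log2 0.32, limma adjusted p = 0.0998). RpL38 and RpS5b were resolved far less well.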

Other observations

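Of 22 genes of the TOR and Myc pathways, 15 had a log2 value above 0 for HSD vs ND (median 0.05) and 14 for HFD vs ND (median 0.03), and limma called 0 in each comparison, with 0 at adjusted p alone. Myc, the transcription factor that drives ribosome production in fly tissues, was at 8.68, 11.1 and 10.1 scaled RPKM on ND, at 11.3, 12.6 and 10.8 on HSD, and at 14.2, 12.3 and 11.1 on HFD. The highest ND and the lowest HFD library were both at 11.1, and the HFD log2 value was 0.31 (limma adjusted p = 0.176).

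Of 5 genes that respond to ribosomal protein imbalance, 1 was above 0 on HSD (median -0.04) and 3 on HFD (median 0.02), with 0 called. Xrp1, the transcription factor induced in fly cells with a Minute mutation, was at 156, 153 and 144 on ND, at 162, 145 and 136 on HSD, and at 171, 165 and 142 on HFD, so the diets overlapped.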
